A study of Mus musculus with 4 samples.

Results

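The genes described here encode the pyruvate dehydrogenase complex, the 4 kinases that switch it off and 1 phosphatase that switches it on again. They are 10 of the 32868 gene names in the deposited tables. The choice was by name, but with earlier results of these data known, so counts over these genes only describe them. The 10 are 5 complex subunits (Pdha1, Pdhb, Dlat, Dld and Pdhx), 4 kinases (Pdk1, Pdk2, Pdk3 and Pdk4) and the phosphatase Pdp1. Each had a single row. The study measured RNA of the tibialis anterior, a fast-twitch muscle of the shin, in C57BL/6 mice at postnatal day 21. The 2 Nf1-KO libraries carry the genotype label Nf1flox/flox/Myf5+(KO), that is both Nf1 alleles floxed. The 2 Het libraries carry Nf1flox/+/Myf5+(Het), with 1 floxed allele, so the Het group is no wild type and both groups share the Myf5+ label. Myf5 is a transcription factor of muscle precursors, and the driver of the deletion is not described further in the labels. Whether the libraries of a group came from separate animals is not stated, so the p-values measure the spread between these libraries, which may be technical.

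The pyruvate dehydrogenase complex sits in the mitochondrial matrix and turns pyruvate, the end product of glycolysis, into acetyl-CoA for the TCA cycle. In muscle it is the gate between carbohydrate and fat as fuel, because the reaction cannot be run backwards. The kinases phosphorylate the alpha subunit of its first enzyme and stop the flow, and the phosphatases remove the phosphate. Pdk4 is known in muscle as the kinase that rises in fasting and when fatty acids are burned. Messenger RNA, the quantity measured here, gives neither the phosphorylation nor the activity of the complex.

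In Nf1-KO muscle 7 of the 9 genes measurable in both groups rose and 0 fell, against 24.9% and 25.4% of all tested genes. The remaining gene, Pdk3, was under 0.5 RPKM in both Het libraries and is described separately. Pdk4 rose 2.18-fold, the largest change among members above 1 RPKM, while the subunits rose by at most 1.29-fold. In Het muscle Pdk4 stood at 1.05 times the level of Pdk2, and in Nf1-KO muscle at 1.91 times. The subunits did not move evenly. Pdha1 and Dld rose by 0.33 and 0.36 on the log2 scale, Pdhb and Dlat by 0.16 and 0.09, and Pdhx and the kinase Pdk1 did not pass the test.

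A call here means an adjusted p under 0.05 in limma, a linear model fitted to log2(RPKM + 1) over all 10690 tested genes. RPKM is the read number divided by gene length and library depth, so levels of different genes can be set side by side. Of all tested genes 24.9% were called higher and 25.4% lower, so a call for a single gene was common in this comparison. With Pdk3 the count of members called higher was 8 of 10. With the values as deposited, without scaling between the libraries, all 10 members, Pdk3 included, were called higher, against 35.2% of all genes. The median log2 fold change was 0.26 over the 9 members measurable in both groups and 0.00 over all tested genes.

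The promoters of the 3 kinase genes on which the comparison turns most are shown first: Pdk4, which changed most, Pdk2, the other abundant kinase, and Pdk1, which was not called. The sequences are those of RefSeq on mouse build GRCm38.p6, from 250 to 35 bases before the gene's start, on the gene's own strand, 5′ to 3′. Capitals mark matches to the CCAAT box (CCAAT, or ATTGG on the other strand), the E-box (CACGTG) and the GC box (GGGCGG). Pdk4 lies at chr6:5496313-5496528 and Pdk2 at chr11:95041406-95041621, both on the minus strand, and Pdk1 at chr2:71872974-71873189 on the plus strand. No annotated exon lies in these windows.
Pdk4: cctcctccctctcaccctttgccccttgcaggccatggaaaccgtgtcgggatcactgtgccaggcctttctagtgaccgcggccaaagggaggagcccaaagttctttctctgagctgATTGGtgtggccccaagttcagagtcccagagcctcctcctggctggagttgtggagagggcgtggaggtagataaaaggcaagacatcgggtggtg
Pdk2: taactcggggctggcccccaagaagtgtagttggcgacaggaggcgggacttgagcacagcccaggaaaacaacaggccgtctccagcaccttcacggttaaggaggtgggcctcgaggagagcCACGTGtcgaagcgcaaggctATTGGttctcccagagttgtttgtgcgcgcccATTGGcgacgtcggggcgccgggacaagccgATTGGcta
Pdk1: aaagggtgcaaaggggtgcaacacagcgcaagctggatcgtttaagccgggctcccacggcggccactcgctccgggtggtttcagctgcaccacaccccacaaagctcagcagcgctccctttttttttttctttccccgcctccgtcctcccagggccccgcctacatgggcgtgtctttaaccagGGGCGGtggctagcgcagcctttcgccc

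The Pdk4 window held 1 CCAAT box, the Pdk2 window 3 CCAAT boxes and 1 E-box, and the Pdk1 window no CCAAT box. Motifs were counted on both strands in the full RefSeq windows, which run from 250 bases before to 50 after a start. RefSeq gave 11 such windows for 9 of the 10 genes, with none for Pdp1 and a pair each for Pdk1 and Pdk2, of which the one nearer the annotated gene start is printed. A CCAAT box was found in 6 genes (Pdhb, Dld, Pdhx, Pdk2, Pdk3 and Pdk4) and in 37.4% of all 32851 windows. A GC box was found in 5 genes (Pdhb, Dlat, Pdhx, Pdk1 and Pdk3) and in 35.7% of all windows, and the E-box in Pdk2 only, against 7.15%. No window of these genes held the letters TCAAGGTCA of the ERR element (0.423% of all windows) or GTAAACA of the forkhead element (3.65%). The short nuclear receptor site AGGTCA, which lies within the ERR element, was in none either (16.3%), nor was the TATA box TATAAA (13.6%). The DR1 element and the NRF1 core, searched as well, were in 0.0396% and 0.971% of all windows and in none of these. Pdha1 held none of the 9 motifs. The Pdk4 window had 12 CpG pairs and a GC content of 60.7%, and the nearer Pdk2 and Pdk1 windows had 25 each at 64.7% and 66.0%. A match is a match of letters in a short window, not a binding site.

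The first enzyme of the complex, E1, takes carbon dioxide off pyruvate, and its alpha subunit carries the serines that the kinases phosphorylate. Pdha1 encodes this subunit (chromosome X, 160122209 to 160138413, build GRCm38, as for all gene positions here). It stood at 206 and 207 RPKM in Het and at 278 RPKM in each Nf1-KO library. The groups were far apart compared with the spread inside them. The log2 fold change came to 0.33 (standard error 0.017, limma adjusted p 2.29e-05). Exons of Pdha1 overlap those of Map3k15, which held 0.04 to 0.07 RPKM, and the testis copy Pdha2 was listed at 0 in every library.

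Pdhb (chromosome 14, 8165996 to 8173025) encodes the beta subunit of E1, which pairs with the alpha subunit in fixed proportion in the protein. Its level was 170 and 163 RPKM in Het and 200 and 197 RPKM in Nf1-KO. The Nf1-KO libraries were again both higher, but the rise was smaller than that of its partner, 0.16 on the log2 scale (standard error 0.026, limma adjusted p 0.0030). The ratio of Pdha1 to Pdhb within a library was 1.21 and 1.27 in Het and 1.39 and 1.41 in Nf1-KO. These ratios do not depend on how libraries are scaled to each other, and they did not overlap between the groups.

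The second enzyme, E2, forms the core of the complex and carries the lipoyl arms that pass the acetyl group on. Dlat (chromosome 9, 50634633 to 50659780) encodes it. It was 71.7 and 71.8 RPKM in Het and 80.9 and 82.4 RPKM in Nf1-KO. On the log2 scale the rise was 0.09 (standard error 0.022, limma adjusted p 0.0146). The call was lost without Het replicate 1 (limma adjusted p 0.0696), without Het replicate 2 (0.0593) and without Nf1-KO replicate 2 (0.0784), and also when limma used no variance trend (0.0922).

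Pdhx (chromosome 2, 103021075 to 103073513) encodes the protein that ties the third enzyme to the core. It was the lowest subunit at 32.25 and 31.3 RPKM in Het and 35.5 and 34.4 RPKM in Nf1-KO. As deposited, both Nf1-KO libraries were above both Het libraries, but after scaling the groups overlapped. The difference was 0.04 on the log2 scale, with a 95% interval from -0.03 to 0.11 (limma adjusted p 0.298). Without scaling it was 0.13 and passed (limma adjusted p 0.0115). The ratio of Dlat to Pdhx was 2.22 and 2.29 in Het and 2.28 and 2.39 in Nf1-KO, which overlap.

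The third enzyme, E3, regenerates the oxidized lipoyl arm and is shared with the 2-oxoglutarate and branched-chain dehydrogenase complexes. Dld (chromosome 12, 31331277 to 31351453) encodes it. Its level was 128 and 127 RPKM in Het and 176 and 175 RPKM in Nf1-KO. Of the 5 subunits it had the largest fold change, log2 0.36 with a standard error of 0.019 (limma adjusted p 2.16e-05). The ratio of Dld to Dlat rose from 1.78 in each Het library to 2.18 and 2.13 in the Nf1-KO libraries. Seen over all 5 subunits, the order of levels was the same in both groups, Pdha1, Pdhb, Dld, Dlat and Pdhx from high to low. No neighbours in that order overlapped in any group: the closest pair, Pdhb and Dld in Nf1-KO, held 197 or more and 176 or less RPKM.

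**Figure D1:**
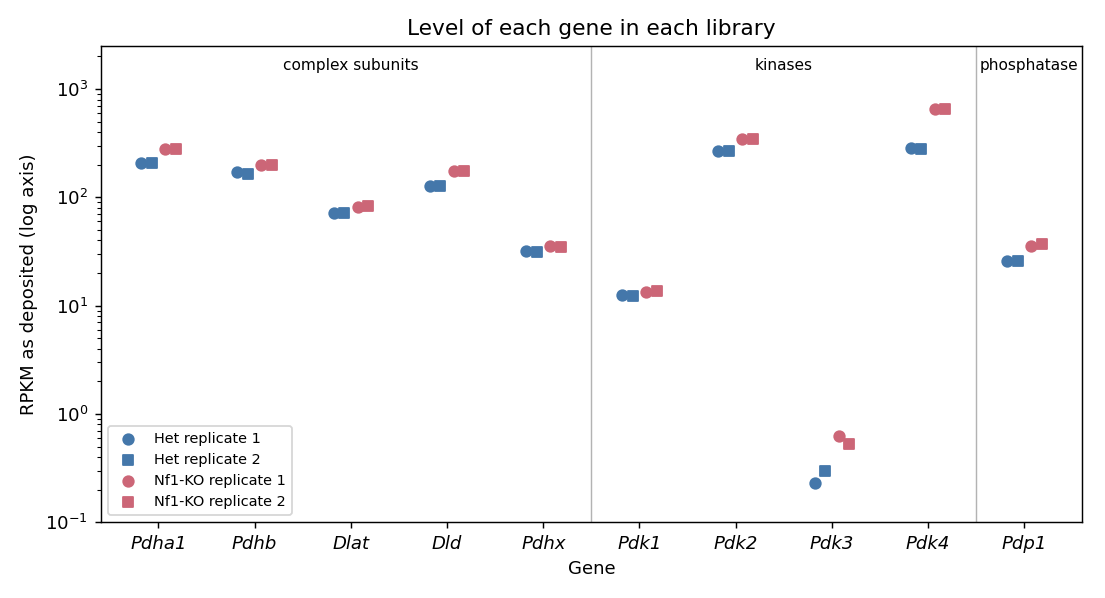
RPKM as deposited (log axis) of the 10 genes in each of the 4 libraries, Het in blue and Nf1-KO in red, with 1 point per library. Pdk4 shows the widest gap between the groups among the abundant genes, and Pdk3 lies under 1 RPKM throughout.

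The kinases differ by tissue: Pdk2 is found in most tissues, Pdk4 is best known from muscle and heart, and Pdk3 from testis. Pdk4 (chromosome 6, 5483351 to 5496309) was 284 and 282 RPKM in Het muscle and 660.05 and 656 RPKM in Nf1-KO muscle. The group means were 283 ± 1.76 and 658 ± 3.11 RPKM (SD, n = 2), so the gap was far larger than the spread between replicates. On the log2 scale Pdk4 rose by 1.12 (standard error 0.017, limma adjusted p 2.79e-07). That placed Pdk4 in position 86 from the top of the 10690 tested genes by log2 fold change, and its level was above that of 99.2% of them.

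Pdk2 (chromosome 11, 95026258 to 95041354) was 269 RPKM in each Het library and 346 and 342 RPKM in Nf1-KO. The groups did not overlap. The rise was 0.26 on the log2 scale (standard error 0.018, limma adjusted p 7.16e-05), smaller than that of Pdha1. Within a library the ratio of Pdk2 to Pdha1 was 1.31 and 1.30 in Het and 1.25 and 1.23 in Nf1-KO. Per unit of its substrate's messenger, Pdk2 was slightly lower in Nf1-KO, while the ratio of Pdk4 to Pdha1 went from 1.38 and 1.36 to 2.37 and 2.36.

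Pdk1 (chromosome 2, 71873224 to 71903858), known as a kinase induced in low oxygen, was 12.4 and 12.3 RPKM in Het and 13.3 and 13.5 RPKM in Nf1-KO. Its log2 fold change was 0.02, with a 95% interval from -0.06 to 0.10 (limma adjusted p 0.665). Without scaling it was 0.11 and passed narrowly (limma adjusted p 0.0343). A rise as large as that of Pdk2 lies outside the interval of the scaled values.

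Pdk3 (chromosome X, 93764607 to 93832201) was close to the limit of what was measured, at 0.23 and 0.3 RPKM in Het and 0.62 and 0.53 RPKM in Nf1-KO. Both Het values lie under the 0.5 RPKM that 2 libraries had to reach, so Pdk3 entered the test only through the group in which it was high and had to differ there (log2 fold change 0.29, limma adjusted p 0.0110). The call was lost without Het replicate 1 (adjusted p 0.0546) and without Nf1-KO replicate 1 (0.0627). In the authors' deposited table its mean normalized count was 39.3, against 75978.9 for Pdk4, and the adjusted p was 0.0957.

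The mixture of kinase messengers held more Pdk4 in Nf1-KO. Summed over the 4 genes the kinases came to 566 and 563 RPKM in Het and to 1020 and 1012 RPKM in Nf1-KO. Pdk4 made up 50.23% and 50.04% of that sum in Het and 64.7% and 64.8% in Nf1-KO. The share of Pdk2 went from 47.5% and 47.7% to 33.9% and 33.8%, and that of Pdk1 from 2.20% and 2.19% to 1.30% and 1.34%. Set against Pdha1, the summed kinases stood at 2.75 and 2.72 in Het and 3.67 and 3.63 in Nf1-KO. For both the Pdk4 share and this ratio the groups did not overlap, and the two-sided exact permutation p was 0.333, the smallest that 2 libraries against 2 can give.

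**Figure D2:**
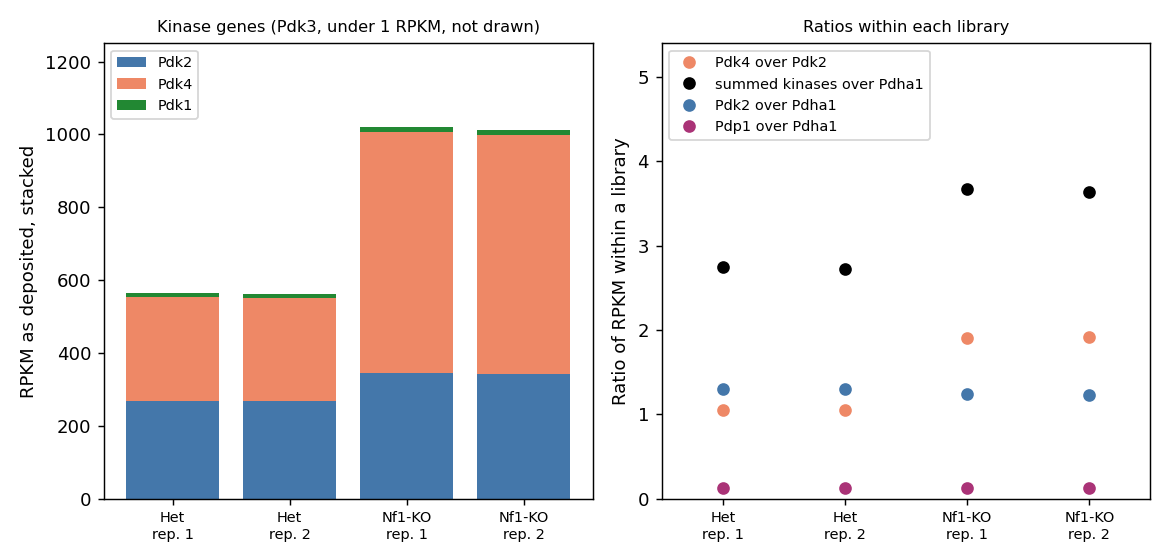
Left, RPKM of Pdk2, Pdk4 and Pdk1 stacked in each of the 4 libraries, with Pdk3 left out. Right, ratios of RPKM within each library, 1 point per library. The orange part (Pdk4) grows from 284 and 282 to 660.05 and 656 RPKM, and the ratio of Pdk4 to Pdk2 goes from 1.057 and 1.049 to 1.905 and 1.917.

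Pdp1 (chromosome 4, 11958184 to 11966452) encodes the calcium-sensitive catalytic phosphatase that reactivates the complex in muscle. It was 26.1 and 26.0 RPKM in Het and 35.2 and 36.8 RPKM in Nf1-KO. The groups did not overlap, and the rise was 0.36 on the log2 scale (standard error 0.030, limma adjusted p 1.68e-04). Its ratio to Pdha1 changed little, from 0.126 and 0.126 in Het to 0.127 and 0.132 in Nf1-KO, though these ratios did not overlap between the groups. The summed kinases, by contrast, were 21.7 times Pdp1 in each Het library and 29.0 and 27.5 times in the Nf1-KO libraries. Pdk2 alone went the other way, from 10.3 times Pdp1 in each Het library to 9.83 and 9.29 times in Nf1-KO.

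A second catalytic phosphatase gene, Pdp2, belongs with Pdp1. It was low, at 1.33 and 1.07 RPKM in Het and 3.05 and 2.74 RPKM in Nf1-KO, and its log2 fold change was 0.76 (limma adjusted p 3.98e-04). As a fold of scaled means the rise of Pdp2 was 2.26, against 2.18 for Pdk4. Pdp1 remained the main form, at 19.6 and 24.3 times Pdp2 in Het and 11.6 and 13.4 times in Nf1-KO. The regulatory subunit Pdpr was listed at 0 in every library, as were 44.7% of all rows of the tables, and whether it was expressed cannot be read from such a value.

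The authors' deposited table, a comparison in the layout of DESeq2, holds all 10 genes and gave 7 of them as higher and 0 as lower at an adjusted p under 0.05, where 15.0% of its 13985 genes were higher. The table's log2 fold changes were 1.11 for Pdk4, 0.35 for Dld, 0.36 for Pdp1, 0.32 for Pdha1, 0.25 for Pdk2, 0.15 for Pdhb and 0.08 for Dlat. For Pdhx (0.03) and Pdk1 (0.01) the authors' deposited table gave adjusted p-values of 0.678 and 0.929. Pdk3, at 0.98 with a standard error of 0.46 in the authors' deposited table, was not called there. For 9 of the genes the table and the scaled values lie close together, and the difference for Pdk3 goes with its low level, at which adding 1 before the logarithm shrinks a fold change.

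**Figure D3:**
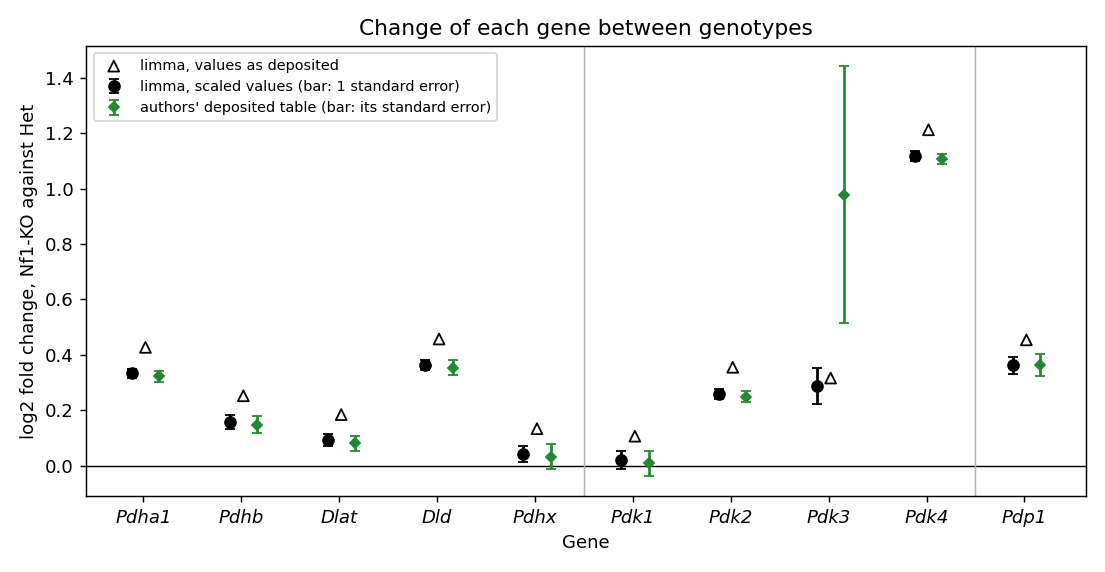
Log2 fold change of Nf1-KO against Het for each gene: filled circles from limma on scaled values, open triangles from limma on values as deposited, green diamonds from the authors' deposited table; bars are 1 standard error. Pdk4 stands at 1.12 on the scaled values, Pdhx and Pdk1 at 0.04 and 0.02.

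All 10 genes had both Nf1-KO libraries above both Het libraries in the values as deposited, which was so for 49.8% of all tested genes. Pdk3, counted among the 10, entered the test only through its Nf1-KO values. After scaling the groups overlapped for Pdhx. Scaling lowers the Nf1-KO libraries by 0.095 on the log2 scale relative to Het, which is more than the scaled differences of Pdhx, Pdk1 and also Dlat, although Dlat was called. By their scaled log2 fold change, Dld, Pdp1 and Pdha1 were above 90.8%, 90.7% and 89.3% of the tested genes, Pdk2 above 85.0%, Pdhb above 75.1%, Dlat above 65.6%, Pdhx above 57.1% and Pdk1 above 53.4%. The members thus run from the middle of the distribution to its top percent.

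**Figure D4:**
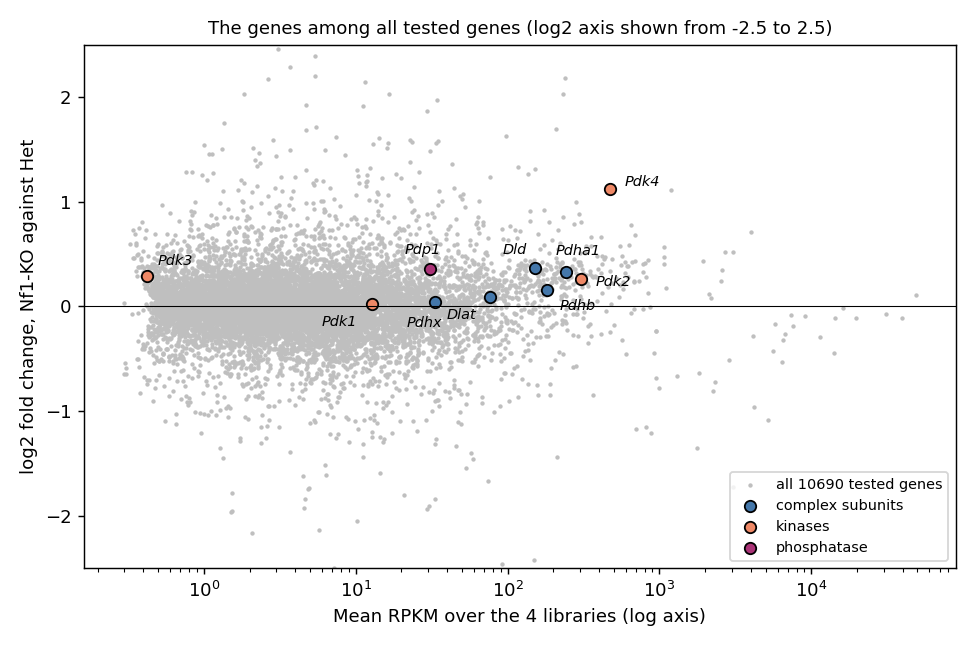
Mean RPKM (log axis) against log2 fold change for all 10690 tested genes in grey, with the 10 genes coloured by role; 9 tested genes lie beyond the drawn axis. Pdk4 has the highest level and the largest change of the 10 genes, while the other members lie between the middle and the upper part of the cloud.

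Genes that supply pyruvate or take it elsewhere moved in both directions. Of 13 tested, 6 rose and 5 fell, with a median log2 fold change of 0.08. Beside this and the lists below stand the shares of all tested genes, 24.9% higher and 25.4% lower. The lists, too, were chosen with earlier results of these data known, so their counts are descriptions. Ldhb, the lactate dehydrogenase form of oxidative muscle and heart, rose from 86.6 and 84.5 to 375 and 376 RPKM (log2 2.03), while Ldha, the form of glycolytic muscle, fell from 1149 and 1120 to 762 and 748 RPKM (log2 -0.68). Pyruvate kinase Pkm fell from 466 and 457 to 277.5 and 271 RPKM (log2 -0.84). The lactate exporter gene Slc16a3 (log2 -1.46) and the cytosolic malic enzyme gene Me1 (log2 -1.11) fell as well. Pdha1 relative to Ldha went from 0.180 and 0.185 in Het to 0.365 and 0.372 in Nf1-KO. Of the pair that carries pyruvate into the mitochondrion, Mpc1 rose from 146 and 144 to 170 and 184 RPKM (log2 0.19), and Mpc2 had a log2 fold change of 0.08 that did not pass (limma adjusted p 0.0955).

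Genes of acetyl-CoA metabolism beyond the complex were mostly higher as well. Of 8 such genes, 7 were tested, of which 6 rose and 0 fell, with a median log2 fold change of 0.47. The list mixes users of acetyl-CoA with other sources of it, such as Acss1, so its count is not one of users alone. Citrate synthase, Cs, rose from 353 and 354 to 478 and 467 RPKM (log2 0.32), almost the same as Pdha1. The ratio of Pdha1 to Cs, formed after these values were seen, was 0.584 and 0.585 in Het against 0.583 and 0.596 in Nf1-KO, and the groups overlapped. Against the same gene Dlat went from 0.203 in each Het library to 0.169 and 0.176, and Pdk4 from 0.805 and 0.797 to 1.38 and 1.40. Crat, which buffers acetyl groups on carnitine, rose by 0.37, Slc25a20, the carnitine carrier, by 0.75, Acat1 by 0.77 and the acetate-activating Acss1 by 1.25 on the log2 scale. Acot12 was under 0.5 RPKM and was not tested.

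The sister complexes use the same E3, and the branched-chain complex also has a kinase and a phosphatase of its own. Of their 9 genes 7 were tested, of which 6 rose and 0 fell (median log2 fold change 0.43). Ogdh and Dlst, E1 and E2 of the 2-oxoglutarate complex, rose by 0.43 and 0.32 on the log2 scale. Bckdha and Bckdhb, the E1 subunits of the branched-chain complex, rose by 0.33 and 0.75. In that complex the phosphatase rose more than the kinase. Pdp1 and Pdk4 showed the reverse order, but Pdp1 (log2 0.36) also rose more than Pdk2 (0.26) and Pdk1 (0.02). The low Pdp2 was below Pdk4 on the log2 scale (0.76 against 1.12) and above it as a fold of scaled means (2.26 against 2.18). The phosphatase Ppm1k rose from 3.4 and 3.67 to 8.45 and 8.77 RPKM (log2 1.00). The kinase Bckdk, at 67.1 and 65.5 against 73.5 and 71.3 RPKM, had a log2 fold change of 0.03 that did not pass (limma adjusted p 0.359).

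Genes for the cofactors of the complex, lipoate and thiamine pyrophosphate, showed no common direction. Of 10, 8 were tested, of which 3 rose, 1 fell and 4 did not pass (median log2 fold change 0.09). The lipoate synthase gene Lias (log2 0.17), Mecr of mitochondrial fatty acid synthesis (0.29) and the thiamine transporter gene Slc19a2 (0.21) rose. Lipt2, which attaches the precursor of lipoate, fell by 0.35 on the log2 scale. The calls of Lias and Slc19a2 were weak, with limma adjusted p 0.0358 and 0.0159, and leaving out single libraries ended them: Lias without Het replicate 2 or either Nf1-KO replicate (0.0567 to 0.17), Slc19a2 without Het replicate 1 or either Nf1-KO replicate (0.0714 to 0.0758). With no filter on low values both missed the threshold too (limma adjusted p 0.153 and 0.0546).

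Factors known to act on the Pdk genes were compared last. Of 15 tested, 9 rose and 3 fell, with a median log2 fold change of 0.25. With the values as deposited 11 rose and 1 fell, where 3760 of all 10690 tested genes (35.2%) rose and 1883 fell. Ppara, the fatty acid sensing receptor known to induce Pdk4, rose from 3.71 and 3.97 to 8.73 and 8.57 RPKM (log2 0.92). Klf15, a factor of the fasting response, rose from 15.5 and 15.8 to 32.1 and 33.0 RPKM (log2 0.92). The forkhead genes Foxo1 and Foxo3 rose by 0.59 and 0.49 on the log2 scale. Rxra, the partner of the PPAR receptors, fell from 36.25 and 35.4 to 30.9 and 29.9 RPKM (log2 -0.32). Whether any of these changes bears on the Pdk genes was not tested.

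**Figure D5:**
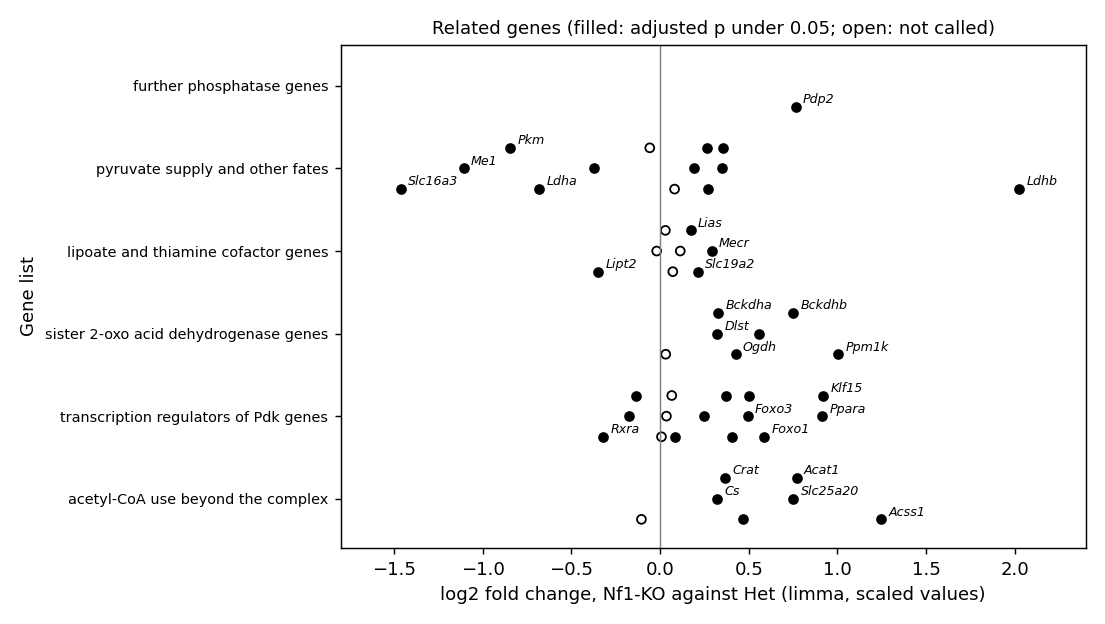
Log2 fold change of Nf1-KO against Het (limma, scaled values) for each tested gene of the 6 lists of related genes, 1 point per gene; filled points passed an adjusted p of 0.05, open points did not. Ldhb at 2.03 and Slc16a3 at -1.46 are the ends of the range.

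Nf1 itself, as the check of the labels, was 1.09 and 1.01 RPKM in Het and 0.89 and 0.85 RPKM in Nf1-KO. This was a small fall in RNA of the whole muscle (log2 -0.18, limma adjusted p 0.0408), and which exons the value counts is not given. The call was lost with unscaled values (0.0944) and when any 1 library was left out (0.0642 to 0.158). As a fold of scaled means, Nf1 in Nf1-KO stood at 0.776 of Het, since adding 1 before the logarithm shrinks a change at this level. The authors' own comparison, in the layout of DESeq2, listed Nf1 as lower, at log2 -0.38 (standard error 0.11, adjusted p 0.00258). The libraries were dominated by muscle fibre genes. The 6 fibre markers summed to 44690 and 44780 RPKM in Het and to 38540 and 38220 RPKM in Nf1-KO (2 rose, 4 fell). Markers of other cells were low but several were higher in Nf1-KO. The 6 immune markers went from 9.0 and 9.2 to 28.4 and 28.3 RPKM in sum (3 of 3 tested rose), most of it Lyz2 at 7.47 and 7.38 against 24.35 and 24.62 RPKM. The 4 Schwann cell markers went from 1.86 and 1.89 to 4.12 and 3.99 RPKM in sum; all 4 were called higher, but 3 of them were under 0.5 RPKM in both Het libraries. The 6 adipocyte markers summed to 8.29 and 9.47 RPKM in Het and 20.0 and 20.6 RPKM in Nf1-KO (2 of 3 tested rose), a sum carried by Cfd at 5.87 and 6.8 against 17.34 and 17.71 RPKM. The other adipocyte markers went in different directions. Cidec was 0.52 and 0.51 against 0.95 and 1.03 RPKM and was called higher (log2 0.35, limma adjusted p 0.0029). Adipoq was 1.11 and 1.31 against 0.95 and 1.05 RPKM and did not pass. Too low to be tested were Retn (0.17 and 0.29 against 0.4 and 0.41 RPKM), Plin1 (0.41 and 0.34 against 0.35 and 0.35 RPKM) and Lep (0.21 and 0.22 against 0.03 and 0.05 RPKM). The 4 fibroblast markers summed to 66.5 to 68.9 RPKM in Het and 78.9 to 79.0 in Nf1-KO (3 of 4 rose), and the 5 endothelial markers to 76.0 to 76.4 and 80.9 to 82.0 (2 rose, 2 fell). The 5 cardiac markers summed to 1.16 and 1.15 RPKM in Het and 2.5 and 2.39 RPKM in Nf1-KO; the only one tested, Myh6, rose (log2 0.63), and Nppb and Myl7 were listed at 0. The 5 red blood cell markers summed to 1.45 and 1.37 against 1.77 and 1.62 RPKM, nearly all of it Alas2, which did not pass, and Hba-a2, Hbb-b1 and Hbb-b2 were listed at 0. The part of these cells in the changes of the complex and its kinases was not tested, and in bulk muscle a change in the cells present and a change in RNA per cell cannot be told apart. Among the fibre markers Myh4, the fastest myosin, fell by 1.08 and Mb, the oxygen store of oxidative fibres, rose by 0.71 on the log2 scale, so markers of fibre type moved with the groups too.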

How the data were processed

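The 4 libraries (2 Het, 2 Nf1-KO) were made from column-purified RNA of frozen muscle with a TruSeq version 2 kit, per the labels' protocols. STAR 2.4.2a, DESeq2 and build mm9 are named in the submitters' processing notes; the counting program, annotation and strandedness are not given in the sources used here. The authors deposited 1 value per gene in 34682 rows, read here as RPKM from the values, since no header names a unit. They sum to 532315 to 547144 per library, and read depth is not given. The authors' deposited comparison table holds a mean normalized signal, a log2 fold change with its standard error, a test score and p-values before and after adjustment, per the file headers.

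Of copies of a name the one with the highest mean was kept, and 33 rows with a number for a name were left out. Genes with at least 0.5 RPKM in 2 libraries were scaled by a trimmed mean of log ratios (trimming 30% by ratio and 5% by abundance at each end; factors 0.968, 0.967, 1.032 and 1.035) and tested on log2(RPKM + 1) by limma 3.58.1 (R 4.3.3; variance trend on the mean), with two-sided p-values and Benjamini-Hochberg adjustment over all 10690 genes. Fold changes on this scale understate the change of low genes; folds given as such are of scaled means, and printed levels are as deposited. The fit was tested on simulated data. The design allowed for counts, and the fit for RPKM was used. Gene positions are from GENCODE M21 (GRCm38), not the authors' build. The 10 members, the lists and the motifs were chosen with earlier results of these data known, and the CCAAT box after the promoters were read. Named genes are the 10 members, Nf1 and, of each list of related genes, up to 5 called genes with the smallest p and any listed at 0; Map3k15, Pdha2, Mpc1, Mpc2, Bckdk, Acot12 and single cell type markers were named beyond that rule after their values were seen. Some genes of these lists are not reported here. The closing section gives 14 alternative settings.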

Additional observations from a re-analysis of the deposited data

How the results depend on the processing

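Pdk4, Pdha1, Dld, Pdk2, Pdp1 and Pdhb kept their direction and call under all 14 alternative settings (pseudocounts of 0.1 and 0.5, no filter, a filter of 1 RPKM in every library, 2 other scalings, no variance trend, a replicate block, each library left out, summed copies, and a threshold of 0.01). Their log2 fold changes ran from 1.10 to 1.21 for Pdk4, 0.32 to 0.43 for Pdha1, 0.35 to 0.46 for Dld, 0.24 to 0.36 for Pdk2, 0.33 to 0.45 for Pdp1 and 0.13 to 0.25 for Pdhb. Dlat lost its call under 6 settings, with no filter at an adjusted p of 0.0512, and Pdk3 under 3 of the 13 that tested it; at 1 RPKM in every library Pdk3 was not tested. Pdhx and Pdk1 were called only without scaling. The count of members called higher ran from 6 to 10 and of those lower was 0 throughout; without single libraries the first ran from 6 to 7. Without scaling, 3760 genes were higher and 1883 lower, against 2661 and 2720. The excess of the summed kinases over Pdha1 in Nf1-KO (a difference in ratio of 0.918) was 1.93 with the mean of the 5 subunits as denominator, by construction; the ratio itself was then 1.41 times that of Het in place of 1.34. Libraries of the same replicate number did not deviate together (correlation of deviations -0.018); with the replicate block 5343 genes and 8 members were called in place of 5381 and 8, and Nf1 was not (-0.18, adjusted p 0.0537). Low level limits Pdk3, Pdp2 and Nf1.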
